A study of Mus musculus with 5 samples.

Results

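The respiratory chain and ATP synthase genes are the nuclear genes for complexes I to IV, cytochrome c and the ATP synthase of the inner mitochondrial membrane. Membership was set by gene name, and the set was picked with earlier results of these data known. A probe set, the group of short oligonucleotides that measures 1 transcript on an Affymetrix array, was a member if it had 1 gene symbol that began with Nduf, Sdh, Uqcr, Atp5 or Cox followed by a digit, or was Cycs or Cyc1. Factors named Ndufaf or Sdhaf were left out. This gave 103 probe sets for 76 genes among the 8251 genes with 1 symbol, and each gene was represented by its probe set with the highest mean signal. Of the 76 genes, 29 belong to complex I, 4 to complex II, 8 to complex III, 15 to complex IV and 14 to the ATP synthase. Cytochrome c itself is 1 gene, and 5 genes named Cox encode assembly factors of complex IV. The proteins that mitochondrial DNA encodes had no probe set under the symbols searched.

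The respiratory chain passes electrons from NADH at complex I and from succinate at complex II through ubiquinone, complex III and cytochrome c to complex IV, which reduces oxygen. Complexes I, III and IV pump protons as they do so, and the ATP synthase uses the proton gradient to make ATP. In macrophages the balance between this pathway and glycolysis is known to shift on activation, and complex I and succinate dehydrogenase are known sources and regulators of reactive oxygen species in inflammation.

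The material was RNA of mouse peritoneal macrophages on 5 arrays, and the series asked how acute oral ethanol changes the genes that poly IC induces. Poly IC, or polyinosinic polycytidylic acid, is a man-made double-stranded RNA that mimics viral RNA. Of the arrays, 2 were the poly IC plus ethanol pools (0.1 mg poly IC per mouse, 6 g ethanol per kg), 2 were pools of animals given poly IC without ethanol, and 1 was an untreated (naive) control. All treated animals were C57Bl/6 x C3H F1 females aged 12 weeks, no ethanol was given without poly IC, and the labels state no sex, age or strain for the naive control and no poly IC dose for the first poly IC pool. Each treated array was a pool of an unstated number of mice, so the p-values measure the spread between pools, and the naive sample, a single array, was assumed to vary like the pools. The labels do not state the time of harvest or the route of poly IC.

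The defining macrophage markers Adgre1, Cd68, Csf1r and Itgam had signals between 19410.5 and 34885 on the 5 arrays, and none of them was called. Of all 18 tested peritoneal macrophage markers, 3 were called higher and 4 lower in poly IC against naive. Summed over the 19 on the array they read 742255 and 685258 in the poly IC plus ethanol pools, 692279 and 772061 in the poly IC pools and 589125 in the naive sample. Cd14, Cxcl13 and Selp were higher, and Gata6, Tgfb2, Mertk and Lgals3 were lower, all named after their values were seen. Gata6, a transcription factor of resident peritoneal macrophages, read 1851 and 2188 in the poly IC plus ethanol pools, 1169 and 1531 in the poly IC pools and 7218 in the naive sample, a log2 difference of -2.23 (SE 0.24, adjusted p = 9.38e-05) for poly IC against naive. Transcripts of other cells were present, and the summed signals of neutrophil and B cell markers moved with the groups. Summed signals of 14 neutrophil markers were 46234 and 39057 in the poly IC plus ethanol pools, 137386 and 100634 in the poly IC pools and 24210 in the naive sample. Those of 13 B cell markers were 141119 and 145002 in the poly IC plus ethanol pools, 100281 and 87447 in the poly IC pools and 263191 in the naive sample. Those of 7 erythroid markers were 21048 and 13391 in the poly IC plus ethanol pools, 19818 and 36264 in the poly IC pools and 2902 in the naive sample. Those of 8 mast cell markers were 32236 and 29034 with ethanol, 62372 and 36241 with poly IC and 22531 in naive. Much of this sum came from Hdc, named after its values were seen. Hdc read 12709 and 11266.5 with ethanol, 28453 and 25488 with poly IC and 2416.5 in naive. The other tested mast cell markers, Cpa3, Cma1, Tpsb2 and Kit, were not called in any comparison. The mast cell marker Cma1 read 17658 and 4237 in the poly IC pools. Summed signals of 15 T and NK cell markers were 23857 and 26646 with ethanol, 21979 and 15588 with poly IC and 29824 in naive. Of these, Cd2 read 17342.5 and 18478 with ethanol, 10284 and 7161 with poly IC and 21779 in naive. The defining marker Cd3d read 333 to 639 over the 5 arrays and was not called. In poly IC against naive Gzma and Gzmb were called higher and Cd2 and Klrd1 lower, all named after their values were seen. In poly IC against naive 7 of 11 tested neutrophil markers were called higher and 1 lower, and 10 of 11 tested B cell markers were called lower. Of the defining markers of these types, Cd3e, Cd3g, Mcpt4 and Alas2 were too dim to be tested. The 18S ribosomal RNA control read 66548 in poly IC pool 2, against 5113 to 19415 on the other arrays. The part of these differences in the values below was not tested, and in such bulk samples fewer cells of a type and less RNA per cell cannot be told apart.

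Of the 76 genes, 67 passed the filter on low signals, a mean of at least the 40th percentile of all probe sets, which was 513. The 9 others were Ndufa12 and Ndufs4 of complex I, Cox5a, Cox6a2, Cox7a1 and Cox8a of complex IV, the complex IV factors Cox14 and Cox20, and Atp5j2. Cox6a2 and Cox7a1 are the heart and muscle forms of their subunits, and their signals lay between 8.6 and 288 on all 5 arrays. Chosen probe sets of other tissue-specific forms passed the filter. They read 443 to 600 for Cox6b2, 741 to 1696 for Cox8b and 3466 to 5664 for Cox8c over the 5 arrays. The other probe sets of these genes did not pass. These read 17.9 to 432 for Cox6b2, 146 to 296 for Cox8b and 20.3 to 437 for Cox8c. The chosen probe sets of Cox6b2 and Cox8b are among those with a suffix, described below. Whether these forms were expressed is therefore not settled. Cox5a and Cox8a encode ubiquitous subunits, and neither was tested. The chosen probe set of Cox5a read 238 and 380 in the poly IC plus ethanol pools, 377 and 248 in the poly IC pools and 283 in the naive sample. That of Cox8a read 280 and 429 in the poly IC plus ethanol pools, 395 and 180.5 in the poly IC pools and 191 in the naive sample. Members that passed ranged from 428 to 35649 in signal. Their median signal was 7392 and 6767 in the poly IC plus ethanol pools, 5956 and 5824 in the poly IC pools and 8212 in the naive sample. The median of all 5581 tested genes was 2281 and 2402 in the poly IC plus ethanol pools, 2222 and 2155 in the poly IC pools and 2545 in the naive sample. Of the 67 chosen probe sets, 18 carry a suffix by which Affymetrix marks probes shared with related sequences or incomplete sets, and none of these belonged to the 19 members called in any comparison. Signals of different probe sets do not compare transcript levels between genes. The heat map of members by array shows the naive array above the member's own mean for most of complexes I to III and below it for Cycs, Cox17 and Cox18.

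**Figure D1:**
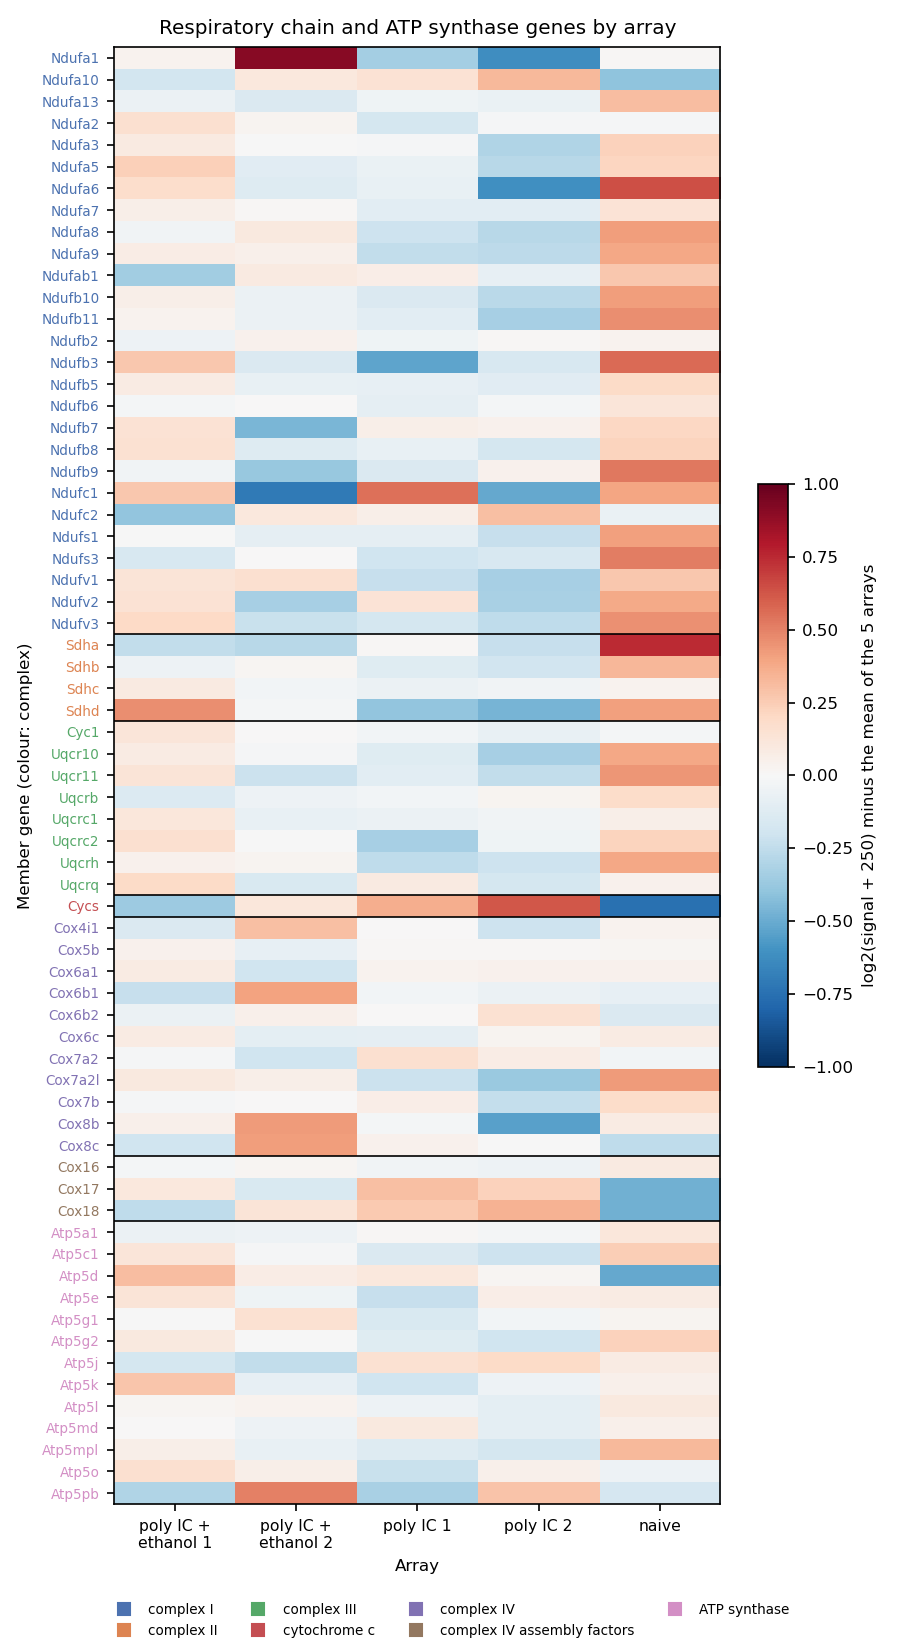
Heat map of the 67 members that passed the filter (rows, grouped by complex and coloured as in the legend) on the 5 arrays (columns). Colour is log2(signal + 250) minus the member's mean over the 5 arrays, cut at 1 and -1. The naive column is above the mean for most members of complexes I, II and III and below it for Cycs, Cox17 and Cox18.

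The comparison of poly IC with naive asks how these genes differed between the 2 groups in the absence of ethanol. With 1 naive array of unstated sex, age and strain, a difference cannot be assigned to poly IC alone. Of the 15 transcripts called lower, 13 encode subunits of complexes I, II and III, and the 3 called higher were those of cytochrome c and of the complex IV factors Cox17 and Cox18. Most tested subunits of complexes I and III, of complex IV and of the ATP synthase were not called in either direction. A gene was called at a Benjamini-Hochberg adjusted p under 0.05 in a limma fit over all 5581 tested genes on log2(signal + 250). In poly IC against naive 3 members were called higher and 15 lower, and 49 were not called. That is 4.48% of the members called higher, against 11.7% of all tested genes, and 22.4% called lower, against 20.1%. The share called lower was thus near that of all genes, and the share called higher was below it. The median log2 difference of the members was -0.24, against -0.16 for all tested genes. Both poly IC pools lay above the naive array for 11 members (16.4%) and below it for 49 (73.1%), against 35% and 52.1% of all genes. A log2 difference within 0.5 of 0 in either direction was found for 67.2% of the members and for 51.6% of all tested genes. Here and below, all tested genes were not matched to the members in signal, and the members had the higher median signal on every array.

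The counts rested on both poly IC pools, on the scaling and, through the shared spread, on the pools with ethanol. Leaving out either pool with ethanol gave more calls. Without poly IC pool 1 there were 2 higher and 3 lower calls, and without pool 2 there were 2 higher and 2 lower. Centring each array on its median left 4 higher and 3 lower calls, and quantile normalization gave 5 higher and 18 lower, so the split between directions depended on the scaling. Cycs and Cox17 were called under all 13 alternatives run for this comparison. Of the 15 lowered members, Cox7a2l, Ndufa6 and Ndufb11 were called without pool 1, where the 15 log2 differences ran from -1.25 to -0.50 and their adjusted p-values up to 0.108. Ndufb3 and Uqcrh were called without pool 2, where the values ran from -1.10 to -0.45 and the adjusted p-values up to 0.208. All 15 were below 0 in both cases.

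By complex, 8 of 27 tested members of complex I, 2 of 4 of complex II and 3 of 8 of complex III were called lower. So were 1 of 11 of complex IV and 1 of 13 of the ATP synthase. These are 29.6%, 50% and 37.5% of complexes I, II and III and 9.09% and 7.69% of complex IV and the ATP synthase, against 20.1% of all tested genes. Under median centring, in the same order of complexes, the lower calls were 2, 0, 0, 1 and 0. Under quantile normalization they were 9, 1, 2, 2 and 4. The contrast between complexes in the share called thus depended on the scaling. The median log2 difference was -0.38 in complex I, -0.66 in complex II and -0.30 in complex III, and it stayed below 0 in these 3 complexes under median centring (-0.30, -0.58 and -0.21) and quantile normalization (-0.42, -0.57 and -0.26). In complex IV the median was -0.01, and it was 0.08 under median centring and -0.08 under quantile normalization. In the ATP synthase it was -0.12, and it was -0.03 under median centring and -0.16 under quantile normalization. Over all tested genes the median was -0.16, and it was -0.07 under median centring and -0.08 under quantile normalization. The difference between complexes was not tested. The plot of log2 differences by complex shows most members of complexes I to III below 0 and those of complex IV on both sides of it.

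**Figure D2:**
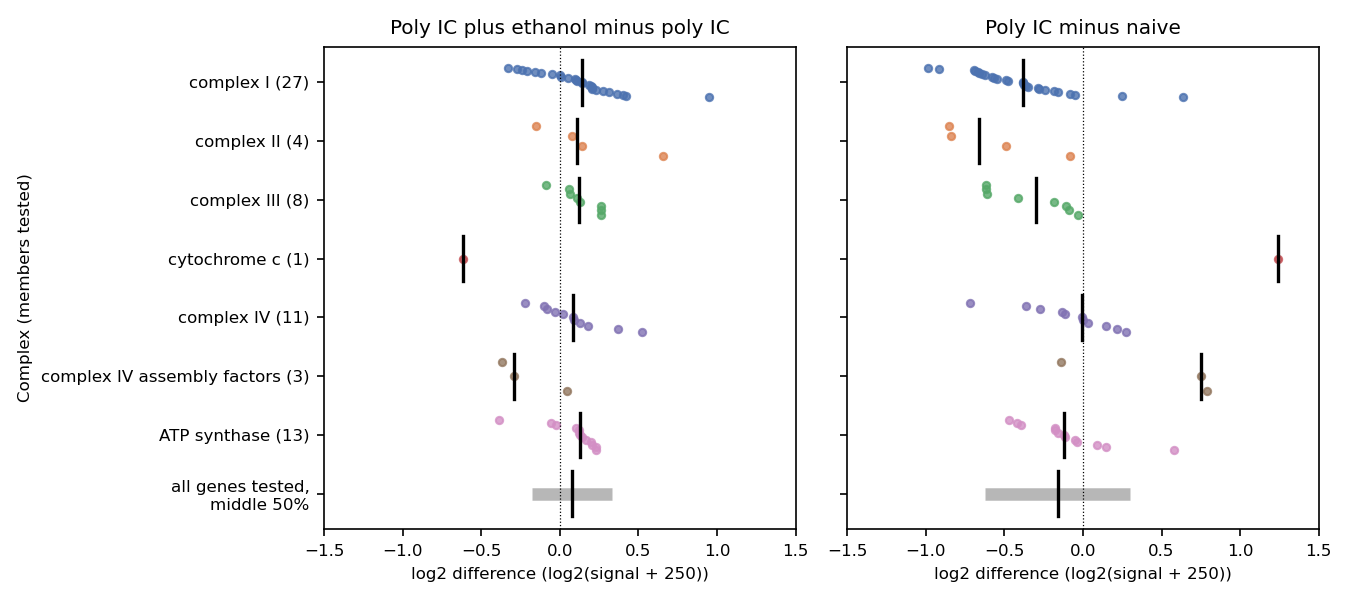
Log2 differences (horizontal axis, on log2(signal + 250)) of the tested members of each complex for poly IC plus ethanol minus poly IC (left) and poly IC minus naive (right). Each point is a gene, black bars are medians and the grey bar spans the middle 50% of all 5581 tested genes. In poly IC minus naive the medians are -0.38, -0.66 and -0.30 in complexes I, II and III and -0.01 in complex IV.

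Upstream sequence is shown for 4 of the called genes, chosen after their values were seen because the letters of the nuclear respiratory factor 1 motif stood in the 250 bases before their start. This factor (NRF1) is known to bind promoters of cytochrome c and of many respiratory chain genes. Sequences are from RefSeq on build GRCm38.p6, 5′ to 3′ on the strand of the gene, ending at the base before the annotated start. Capitals mark matches to the NRF1 motif GCGCANGCG or, once in Sdhd, the GABP or ETS motif CCGGAAG, on either strand.
Cycs (chr6:50566570-50566819, minus strand): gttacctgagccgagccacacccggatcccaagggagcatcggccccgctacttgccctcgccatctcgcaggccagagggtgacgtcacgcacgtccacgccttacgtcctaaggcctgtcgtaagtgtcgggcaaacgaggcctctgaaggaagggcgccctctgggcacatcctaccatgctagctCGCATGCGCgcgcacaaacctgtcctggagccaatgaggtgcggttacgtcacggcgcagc
Sdha (chr13:74350241-74350490, minus strand): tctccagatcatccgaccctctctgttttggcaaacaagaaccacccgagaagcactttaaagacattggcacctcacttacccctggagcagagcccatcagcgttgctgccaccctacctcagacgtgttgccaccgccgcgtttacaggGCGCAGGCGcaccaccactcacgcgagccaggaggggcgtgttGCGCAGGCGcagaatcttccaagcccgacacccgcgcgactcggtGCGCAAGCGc
Sdhd (chr9:50603850-50604099, minus strand): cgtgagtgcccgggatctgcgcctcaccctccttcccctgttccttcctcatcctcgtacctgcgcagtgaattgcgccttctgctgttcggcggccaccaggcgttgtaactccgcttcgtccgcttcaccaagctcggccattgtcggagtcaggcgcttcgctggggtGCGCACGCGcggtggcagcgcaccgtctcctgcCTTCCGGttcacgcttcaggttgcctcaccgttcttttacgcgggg
Ndufa8 (chr2:36049339-36049588, minus strand): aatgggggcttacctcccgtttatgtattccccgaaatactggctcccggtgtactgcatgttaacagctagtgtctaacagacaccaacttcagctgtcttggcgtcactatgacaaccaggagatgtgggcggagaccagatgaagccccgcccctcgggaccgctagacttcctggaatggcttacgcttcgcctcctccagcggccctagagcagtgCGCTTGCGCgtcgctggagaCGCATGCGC
Sdha held 3 NRF1 matches, Ndufa8 held 2, and Cycs and Sdhd held 1 each. A window of 300 bases, 250 before and 50 after the start, was found for 60 of the 76 members, and for neither Cox17 nor Cox18. The NRF1 motif stood in 15 of these 60 (25%), against 7.03% of 27025 genes with a window. Those 27025 were not limited to the 5581 tested genes and were not matched to the members in signal or base content. The GABP or ETS motif stood in 18 (30%), against 9.93%, and the YY1 motif CCATNTT in 17 (28.3%), against 18.2%. The ERR alpha motif TNAAGGTCA stood in 1 (1.67%), against 1.43%, and the interferon-stimulated response element core GAAANNGAA in 5 (8.33%), against 9.76%. Among tested members with a window, NRF1 letters stood in 6 of 14 called lower in poly IC against naive, in the 1 called higher and in 8 of 37 not called. A match is a description of letters and not a site in use, and some windows hold matches to several motifs.

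Cycs, somatic cytochrome c, which carries electrons from complex III to complex IV and triggers the apoptosome when released into the cytosol, had the largest difference among the members. Its signal was 1546.5 and 2247 in the poly IC plus ethanol pools, 2721 and 3301.5 in the poly IC pools and 1125.5 in the naive sample. All 4 treated pools were above the naive array, and both poly IC pools were above both pools with ethanol. Cycs was 2.68-fold higher in the poly IC mean than in naive, a log2 difference of 1.24 (SE 0.26, adjusted p = 0.0058). Without poly IC pool 1 the log2 difference was 1.37 (adjusted p = 0.0169), and without pool 2 it was 1.11 (adjusted p = 0.0447). With ethanol the log2 difference from poly IC was -0.62, with a 95% interval of -1.10 to -0.13, and did not pass (adjusted p = 0.104).

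Cox17 is the copper chaperone that supplies copper for complex IV, and Cox18 helps to insert a mitochondrially encoded complex IV subunit into the inner membrane. Cox17 read 22688 and 18973 in the poly IC plus ethanol pools, 26039 and 24842 in the poly IC pools and 15034.5 in the naive sample, and the 3 groups did not overlap. Its log2 difference between poly IC and naive was 0.75 (SE 0.16, adjusted p = 0.00525), and it was 0.72 (adjusted p = 0.0314) without poly IC pool 1 and 0.78 (adjusted p = 0.0227) without pool 2. Cox18 read 5106 and 6767 in the pools with ethanol, 7408 and 7905 in the poly IC pools and 4330.1 in the naive sample, again with no overlap between groups. Its log2 difference was 0.79 (SE 0.21, adjusted p = 0.0172), and it was no longer called without poly IC pool 1, at 0.83 (adjusted p = 0.0606), or without pool 2, at 0.74 (adjusted p = 0.095). The third tested factor, Cox16, which helps to assemble the copper-bearing subunits, had a log2 difference of -0.14 with a 95% interval of -0.56 to 0.29.

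**Figure D3:**
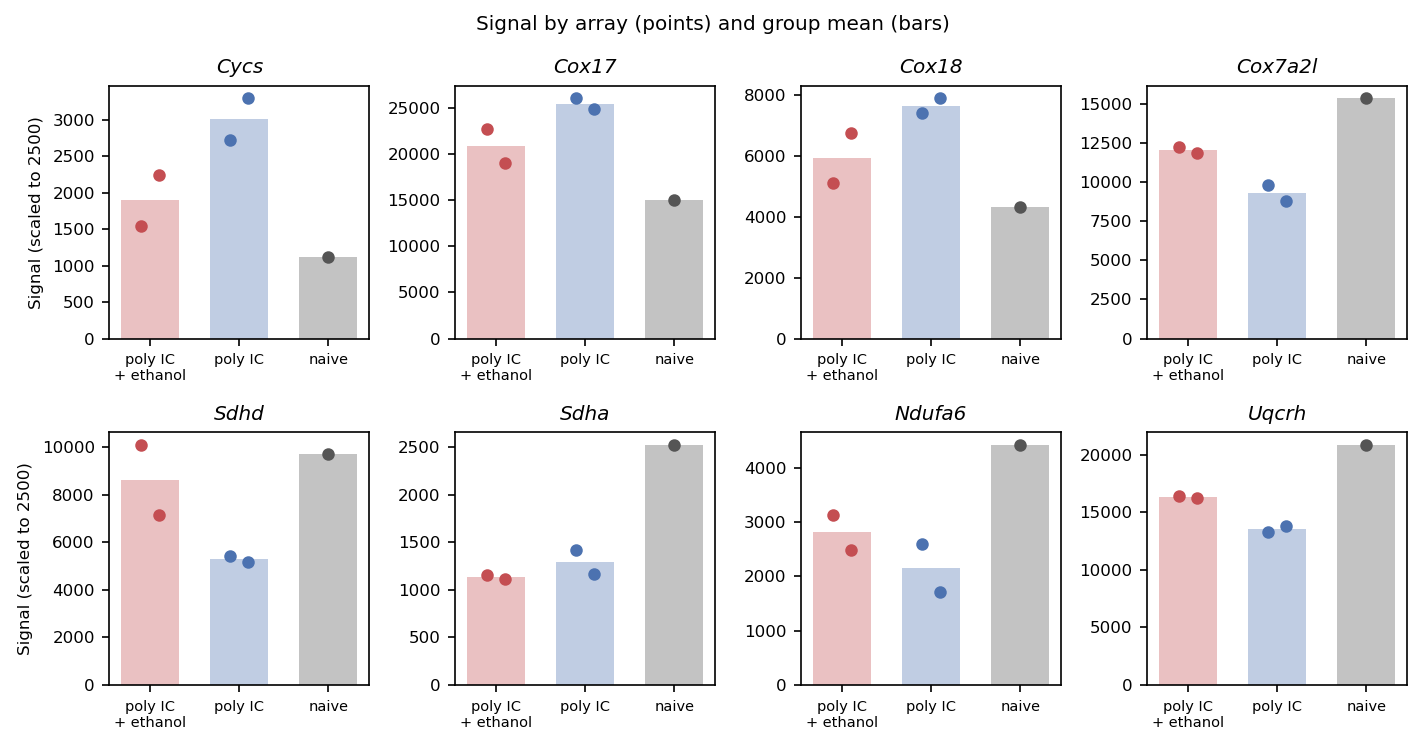
Signals on a linear scale (vertical axis, arrays scaled to a target of 2500) of 8 members in the poly IC plus ethanol, poly IC and naive groups. Points are arrays (2 pools in either treated group, 1 naive array) and bars are group means. Cycs, Cox17 and Cox18 have their highest group means in the poly IC pools, and Cox7a2l, Sdhd, Ndufa6 and Uqcrh have their lowest there.

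In complex I the 8 lowered genes belong to several of its parts. Ndufv1, the flavoprotein that oxidises NADH, read 14910.5 and 15199.8 in the poly IC plus ethanol pools, 11567 and 10782 in the poly IC pools and 16455 in the naive sample. The poly IC pools were the lowest arrays and did not overlap with the others, and the log2 difference of poly IC from naive was -0.55 (SE 0.15, adjusted p = 0.0222). Ndufs3, a core subunit of the arm that reduces ubiquinone, read 5078 and 5729 with ethanol, 4936 and 5067 with poly IC and 8253 in naive, so that the 4 treated pools lay together below the naive array. Its log2 difference was -0.70 (SE 0.19, adjusted p = 0.0176). Ndufa9, an accessory subunit at the junction of the matrix and membrane arms, fell by 0.64 on the log2 scale (adjusted p = 0.0205).

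The other 5 lowered complex I genes encode accessory subunits around the core. Ndufa6, which holds the mitochondrial acyl carrier protein on the matrix arm, had the largest fall in the complex. It read 3128 and 2491 in the poly IC plus ethanol pools, 2598 and 1714 in the poly IC pools and 4424 in the naive sample, a log2 difference of -0.98 (SE 0.27, adjusted p = 0.0186). The poly IC pools differed widely and pool 1 lay within the range of the pools with ethanol. Without pool 1 the value was -1.25 (adjusted p = 0.0143), and without pool 2 it was -0.71 (adjusted p = 0.119) and no longer called. Ndufb3, in the membrane arm, read 5724 and 4232 with ethanol, 3192 and 4192 with poly IC and 7112 in naive, a log2 difference of -0.91 (SE 0.24, adjusted p = 0.0167). Its call was lost without poly IC pool 1, at -0.73 (adjusted p = 0.102). The membrane arm subunits Ndufb10 and Ndufb11 fell by 0.63 and 0.68 on the log2 scale, and Ndufa8, a subunit with paired cysteines on the side of the intermembrane space, fell by 0.66 (adjusted p = 0.027, 0.0154 and 0.0288).

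The 19 complex I members not called ran from -0.67 (Ndufv3, named after its value was seen) to 0.64 (Ndufa10) in log2 difference of poly IC from naive. Ndufs1, the large iron-sulfur subunit, missed the threshold at -0.56 (SE 0.20, adjusted p = 0.0553). Its signal was 3734 and 3504 in the pools with ethanol, 3514 and 3164 in the poly IC pools and 5048 in the naive sample, which was the highest array. Ndufa10, named after its value was seen, was one of the 2 tested complex I genes with both poly IC pools above naive. It read 1564 and 1970 with ethanol, 2027 and 2331 with poly IC and 1311 in naive, at 0.64 (SE 0.24, adjusted p = 0.0752), and it was called higher under median centring, at 0.72 (adjusted p = 0.0479), and under quantile normalization. Ndufc1, a small membrane arm subunit also named after its values were seen, had the widest gaps between pools. It read 4503 and 2164 with ethanol and 5524 and 2517 with poly IC, against 4942 in naive. Over the members the median gap between the pools of a group was 0.16 log2 units with ethanol and 0.10 with poly IC alone, against 0.22 and 0.17 over all tested genes.

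Complex II, succinate dehydrogenase, takes electrons from succinate and is part of the tricarboxylic acid cycle as well. Sdha, the flavoprotein that binds succinate, read 1153 and 1119 in the poly IC plus ethanol pools, 1421 and 1163 in the poly IC pools and 2528 in the naive sample. The 4 treated pools lay close together, all below the naive array, and the log2 difference of poly IC from naive was -0.85 (SE 0.26, adjusted p = 0.0292). Sdhd, one of the membrane anchors, read 10113 and 7166 with ethanol, 5446 and 5186 with poly IC and 9706 in naive. The poly IC pools were the lowest arrays, and ethanol pool 1 reached the naive signal. The log2 difference of poly IC from naive was -0.84 (SE 0.22, adjusted p = 0.0159).

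Without poly IC pool 1, Sdha stood at -0.98 (adjusted p = 0.0611) and Sdhd at -0.87 (adjusted p = 0.0531). Without pool 2 they stood at -0.73 and -0.81, and neither was called when 1 poly IC pool was left out. Sdhb, the iron-sulfur subunit, was not called at -0.49 (SE 0.17, adjusted p = 0.056). Sdhc, the other membrane anchor, differed by -0.08, with a 95% interval of -0.46 to 0.30, and its 5 signals ran from 8663 to 9602. The 4 subunits therefore had unequal values although they form 1 enzyme. Whether they differ from each other was not tested.

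In complex III the lowered genes were 3 small subunits. Uqcrh, the hinge protein that docks cytochrome c, read 16401 and 16238 in the poly IC plus ethanol pools, 13307 and 13784 in the poly IC pools and 20879 in the naive sample, and no groups overlapped. Its log2 difference of poly IC from naive was -0.62 (SE 0.15, adjusted p = 0.0105), and without poly IC pool 1 it was -0.59 (adjusted p = 0.0579). Uqcr10 and Uqcr11, other small subunits, fell by 0.62 and 0.61 (adjusted p = 0.0269 and 0.0492). The core proteins Uqcrc1 and Uqcrc2 were not called, at -0.10 (95% interval -0.50 to 0.29) and -0.41 (-0.87 to 0.05). Cyc1, cytochrome c1, the heme subunit that hands electrons to cytochrome c, read 24499 and 22571 with ethanol, 22084 and 21411 with poly IC and 22269.7 in naive. Its log2 difference was -0.03 with a 95% interval of -0.35 to 0.28, and a second probe set of the gene gave 0.42.

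In complex IV the single lowered gene was Cox7a2l, related to the Cox7a subunits and known to join complexes III and IV in supercomplexes. It read 12235 and 11873 in the poly IC plus ethanol pools, 9787 and 8751 in the poly IC pools and 15359 in the naive sample, with the pools with ethanol between the other groups. Its log2 difference of poly IC from naive was -0.72 (SE 0.16, adjusted p = 0.00844), and it was -0.64 (adjusted p = 0.0648) without poly IC pool 2. Cox7a2, the ubiquitous subunit of the same family, differed by 0.15 with a 95% interval of -0.21 to 0.51. Cox5b, a subunit that binds zinc, read 12315 and 11248 with ethanol, 12056 and 12024 with poly IC and 12094 in naive, with an interval of -0.37 to 0.35 around -0.01. Cox6a1 differed by 0.00 (-0.34 to 0.35) and Cox4i1, the ubiquitous form of its subunit, by -0.14 (-0.75 to 0.48). The probe sets of Cox6a1 and Cox4i1 are among the 18 with a suffix. Cox6b1, Cox6b2 and Cox8b had wider intervals, of -0.70 to 0.77, -0.75 to 1.18 and -1.08 to 0.36.

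Of 13 tested ATP synthase genes, Atp5mpl, a small proteolipid that copurifies with the enzyme, was called. It read 20008 and 18259 in the poly IC plus ethanol pools, 17599 and 17039.7 in the poly IC pools and 24130 in the naive sample, which was the highest, and the log2 difference of poly IC from naive was -0.47 (SE 0.15, adjusted p = 0.0332). It was -0.50 (adjusted p = 0.0946) without poly IC pool 1 and -0.45 (adjusted p = 0.134) without pool 2. Atp5a1, the alpha subunit of the catalytic head, read 24431 and 24628 with ethanol, 25697 and 25226 with poly IC and 27669 in naive, a log2 difference of -0.12 with a 95% interval of -0.42 to 0.18. Atp5c1, the gamma subunit of the rotating stalk, and Atp5g2, a gene for subunit c of the ring, were not called at -0.42 and -0.39 (adjusted p = 0.0576 and 0.159). Atp5d, the delta subunit, gave 0.58 by its chosen probe set, while 3 other probe sets of the gene that passed the filter gave 0.58, -0.25 and -0.33, so its direction depended on the probe set. Over 8 members with further passing probe sets, none of them called, the sign of the further probe set matched that of the chosen one in 5 of 10 cases for poly IC plus ethanol against poly IC, in 4 of 10 for poly IC against naive and in 6 of 10 for poly IC plus ethanol against naive. Atp5b, Uqcrfs1, Ndufa4 and Cox4i2 were not analysed here.

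**Figure D4:**
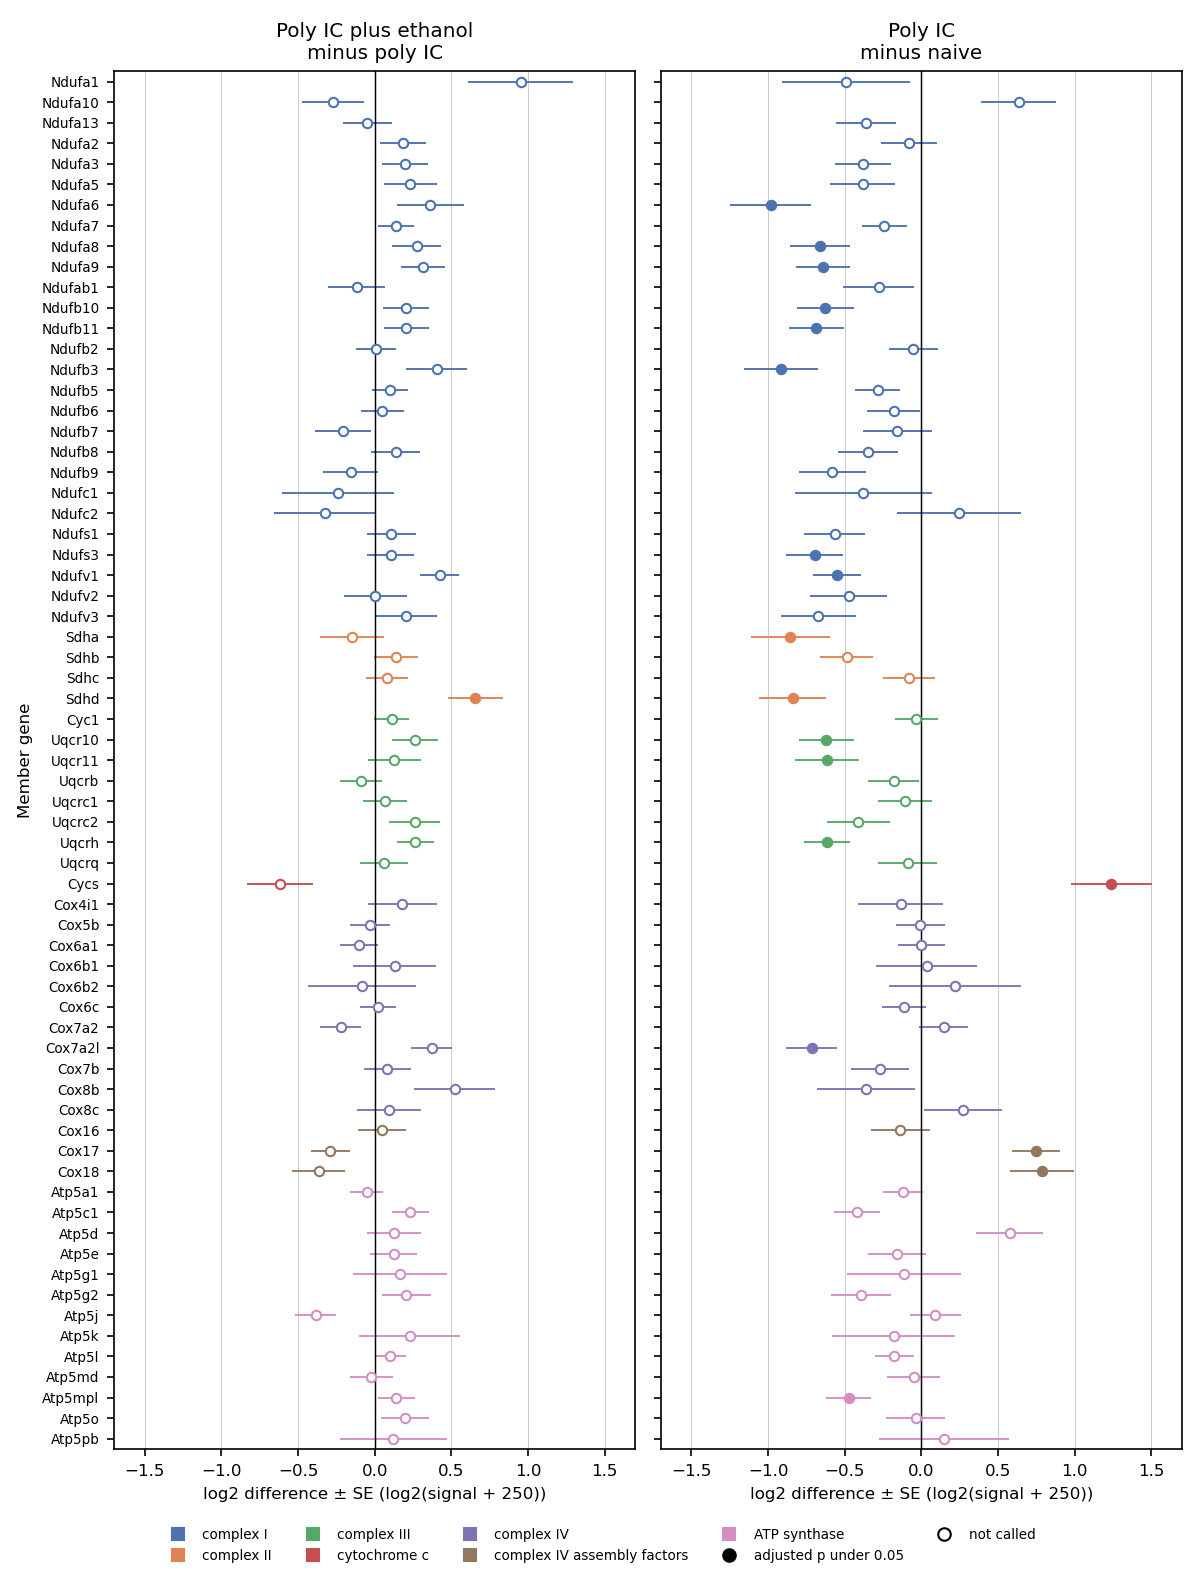
Log2 difference (horizontal axis, on log2(signal + 250)) with its standard error for each of the 67 tested members, for poly IC plus ethanol minus poly IC (left) and poly IC minus naive (right). Filled points are called at adjusted p under 0.05 and colours mark the complex. On the right 3 filled points lie above 0 and 15 below it, and on the left Sdhd is the 1 filled point.

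Poly IC plus ethanol against poly IC asks what ethanol added to poly IC. The members moved little: 1 gene, Sdhd, was called higher, none was called lower and 66 were not called. That is 1.49% called higher, against 5.77% of all tested genes, and 0% called lower, against 4.8%, and 7 members had an unadjusted p under 0.05. The median log2 difference was 0.11 over the members and 0.07 over all tested genes. Within 0.5 of 0 lay 94% of the members, against 76.8% of all tested genes, which were not matched in signal. Both pools with ethanol lay above both poly IC pools for 29 members (43.3%) and below for 9 (13.4%), against 33.1% and 21.7% of all genes, and the direction of this split depended on the scaling, since median centring gave 8 above and 15 below. No member was called without poly IC pool 1 or without pool 2, while 2 higher and 3 lower calls were made without ethanol pool 1 and 2 higher and 2 lower without ethanol pool 2. This comparison and that of poly IC with naive share the poly IC arrays, so their values, given side by side, are not independent.

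Sdhd was 1.63-fold higher in the mean of the pools with ethanol than in that of the poly IC pools, a log2 difference of 0.66 (SE 0.18, adjusted p = 0.0465). The signals given above show both pools with ethanol over both poly IC pools, with a wide gap between the pools with ethanol. Without ethanol pool 1 the log2 difference was 0.41 (adjusted p = 0.0992), and without pool 2 it was 0.90 (adjusted p = 0.000253). Without poly IC pool 1 and without pool 2 it was 0.69 (adjusted p = 0.168) and 0.62 (adjusted p = 0.25). The call was lost under 9 of 14 alternatives, with adjusted p-values up to 0.25. The other complex II subunits were not called, with 95% intervals of -0.62 to 0.32 for Sdha, -0.18 to 0.45 for Sdhb and -0.23 to 0.39 for Sdhc.

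Next to the threshold stood Ndufv1, at 0.42 (SE 0.13, adjusted p = 0.0638), with both pools with ethanol above both poly IC pools. Ndufa1, a small membrane arm subunit of complex I, had the largest log2 difference, 0.95 (SE 0.34, adjusted p = 0.111). Its signal was 834 and 1747 with ethanol, 589 and 440.1 with poly IC and 818 in naive, and the pools with ethanol differed more from each other than the lower of them from either poly IC pool. Cox7a2l stood at 0.37 (SE 0.13, adjusted p = 0.112). Atp5j, coupling factor 6 of the peripheral stalk, stood at -0.39 (SE 0.14, adjusted p = 0.106). Its signal was 8012 and 7629 with ethanol, 10139 and 10453 with poly IC and 9649 in naive, so that the pools with ethanol were the lowest arrays. Cox17 and Cox18 stood at -0.29 and -0.37 (adjusted p = 0.187 and 0.213), with both pools with ethanol below both poly IC pools.

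Several bright members had narrow intervals around small differences, and of these Atp5l, Cox6c and Ndufb5 were named after their values were seen. The 95% interval of the log2 difference was -0.13 to 0.33 for Atp5l, subunit g of the membrane part, -0.30 to 0.19 for Atp5a1 and -0.15 to 0.37 for Cyc1. It was -0.24 to 0.29 for Cox6c, a small complex IV subunit, and -0.17 to 0.37 for Ndufb5, a membrane arm subunit of complex I. Over complexes the medians were 0.14 in complex I, 0.11 in complex II, 0.12 in complex III, 0.08 in complex IV and 0.13 in the ATP synthase, all near the 0.07 of all tested genes. Under median centring they were 0.04, 0.01, 0.02, -0.02 and 0.03.

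Poly IC plus ethanol against naive asks how the cells of mice given both agents differed from untreated ones. None of the members was called higher and 2 were called lower, Sdha and Ndufb9, while 13 members had an unadjusted p under 0.05. That is 0% called higher, against 8.39% of all tested genes, and 2.99% called lower, against 8.26%. The median log2 difference was -0.15, against -0.11 over all tested genes, and 88.1% of the members lay within 0.5 of 0, against 63.2% of all. Both pools with ethanol lay above the naive array for 11 members (16.4%) and below it for 39 (58.2%), against 32.7% and 48.1% of all genes. Leaving out poly IC pool 1, which bears on this comparison through the spread alone, gave 1 lower call, and so did leaving out pool 2. Without ethanol pool 1 there were 3 higher and 10 lower calls, and without ethanol pool 2 there were 2 higher and 3 lower.

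Sdha stood at -1.003 (SE 0.26, adjusted p = 0.025) against naive, and its call was kept under 12 of 13 alternatives, being lost with no filter on low signals. Ndufb9, an accessory subunit of the complex I membrane arm, read 3852.5 and 2985 in the poly IC plus ethanol pools, 3553 and 4076 in the poly IC pools and 5812.5 in the naive sample, which was the highest. Its log2 difference from naive was -0.73 (SE 0.22, adjusted p = 0.0481) with ethanol and -0.58 (SE 0.22, adjusted p = 0.0717) without. This call with ethanol was lost under 8 of 13 alternatives, with values from -0.91 to -0.56, among them leaving out ethanol pool 2 (-0.56, adjusted p = 0.0695), poly IC pool 1 (adjusted p = 0.0899) and poly IC pool 2 (adjusted p = 0.0887). Cycs, Cox17 and Cox18 stood at 0.62, 0.46 and 0.42 against naive with ethanol and were not called (adjusted p = 0.145, 0.0778 and 0.209). In all 3 genes both pools with ethanol nevertheless lay above the naive array and below both poly IC pools. Sdhd stood at -0.18, with a 95% interval of -0.68 to 0.31.

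Other genes of the pathway were read from lists of assembly factors, of carriers and electron entry points, and of regulators of mitochondrial biogenesis. In poly IC against naive 12 of their 46 tested genes were called, 4 higher and 8 lower. These are 8.70% higher and 17.4% lower, against 11.7% and 20.1% of all tested genes, so the lists held no larger share of calls than all genes did. Among 15 tested assembly factors, 1 was higher and 4 were lower. Uqcc1, needed to make cytochrome b of complex III, read 745 and 936 in the poly IC plus ethanol pools, 2267 and 2519 in the poly IC pools and 233 in the naive sample, and the 3 groups were far apart. The brightest bacterial control on the naive array, which marks background, read 225.5. Its log2 difference was 2.45 (SE 0.29, adjusted p = 0.000191) for poly IC against naive and -1.28 (SE 0.24, adjusted p = 0.0105) for poly IC plus ethanol against poly IC. Uqcc3, another complex III factor, and Surf1, which helps to build complex IV, fell by 1.57 and 1.73 in poly IC against naive (adjusted p = 0.00611 and 0.00179). Coa6, a complex IV copper factor, and Sdhaf2, which attaches flavin to Sdha, fell by 1.42 and 0.90 (adjusted p = 0.0166 and 0.0128). Sdhaf1, which helps to insert iron-sulfur clusters into Sdhb, was higher with ethanol than with poly IC alone, at 0.77 (SE 0.17, adjusted p = 0.0229).

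Among 16 tested carriers and electron entry points, 3 were lower in poly IC than in naive and none was higher. Slc25a4, an exchanger of ADP and ATP across the inner membrane, read 9551 and 8287 in the poly IC plus ethanol pools, 5669.8 and 4907 in the poly IC pools and 12454 in the naive sample, with the pools with ethanol between the others. Its log2 difference was -1.20 (SE 0.19, adjusted p = 0.00101) for poly IC against naive and 0.73 (SE 0.15, adjusted p = 0.0169) for poly IC plus ethanol against poly IC. Etfdh, which passes electrons from fatty acid oxidation to ubiquinone, and Coq9, a factor of ubiquinone synthesis, fell by 1.09 and 1.01 in poly IC against naive (adjusted p = 0.0197 and 0.0262).

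Among 15 tested regulators, 3 were higher and 1 was lower in poly IC than in naive. Pprc1, a coactivator related to PGC-1 alpha, read 1004 and 1129.6 with ethanol, 2192 and 2176 with poly IC and 770.2 in naive. It differed by 1.25 (SE 0.25, adjusted p = 0.00449) between poly IC and naive and by -0.89 (SE 0.21, adjusted p = 0.0263) between poly IC plus ethanol and poly IC. Myc and Hif1a, transcription factors known to act on growth and on the response to low oxygen, differed by 0.98 and 1.07 between poly IC and naive (adjusted p = 0.00241 and 0.000158), and Hif1a by -0.41 (SE 0.10, adjusted p = 0.0334) between poly IC plus ethanol and poly IC. Yy1, a factor known to bind promoters of respiratory genes, read 2512 and 2345 with ethanol, 2353 and 1945 with poly IC and 5839 in naive, all treated pools lying far below the naive array. It differed by -1.35 (SE 0.22, adjusted p = 0.00117) for poly IC and -1.19 (SE 0.22, adjusted p = 0.00462) for poly IC plus ethanol, each against naive. Hcfc1 and Tfb2m, a coregulator and a mitochondrial transcription factor, were called lower with poly IC plus ethanol, at -0.78 and -0.87 (adjusted p = 0.0352 and 0.0393), and stood at -0.61 and -0.62 with poly IC (adjusted p = 0.0557 and 0.0836).

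The 3 lists held 5 calls in poly IC plus ethanol against poly IC, 2 higher and 3 lower, and 8 in poly IC plus ethanol against naive, 3 higher and 5 lower. In the first comparison these are 4.35% higher and 6.52% lower, against 5.77% and 4.8% of all tested genes, and in the second 6.52% and 10.9%, against 8.39% and 8.26%, near the shares of all genes. None was left in the first without poly IC pool 1 or without pool 2, and 4 were left in the second without poly IC pool 1 and 4 without pool 2. In poly IC against naive the 12 calls became 21 without ethanol pool 1 and 20 without ethanol pool 2. Lists of other mitochondrial and housekeeping genes give a scale beside the 11.7% higher and 20.1% lower of all tested genes. In poly IC against naive, 4 of 15 tested genes of the tricarboxylic acid cycle and pyruvate dehydrogenase and 4 of 55 of the mitochondrial ribosome were lower and none was higher, with median log2 differences of -0.43 and -0.26. The cytosolic ribosome had 1 higher and 2 lower among 26 with a median of -0.03, and the constitutive proteasome had 3 higher and none lower among 14 with a median of 0.13. Against these, the members' median was -0.24. Pdha1, a subunit of pyruvate dehydrogenase, which feeds that cycle, read 8658 and 7586.5 with ethanol, 5395 and 4739 with poly IC and 12803 in naive, and differed by -1.30 (SE 0.19, adjusted p = 0.000613) and, for poly IC plus ethanol against poly IC, by 0.65 (SE 0.15, adjusted p = 0.0254).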

How the data were processed

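The deposited values are intensities, 1 linear signal per probe set and array. Per the labels, the authors made them with Microarray Suite 5.0, scaled each array to a target of 2500 and used Data Mining Tool 3.0, so a change in total RNA cannot be seen. Samples were grouped by their titles. Of 12488 probe sets, 66 were controls, and of the rest 10833 had 1 symbol in the platform annotation, 396 had several and 1193 had none. Symbols were updated through a RefSeq table of GRCm38.p6, and 11 probe sets that name a member beside another gene were not used. The filter kept 6675 probe sets and 5581 genes. Signals were analysed as log2(signal + 250), which understates the folds of dim genes, without further normalization. limma 3.58.1 in R 4.3.3 (lmFit with a mean per group over all 5 arrays, eBayes with trend) gave two-sided p-values, adjusted by Benjamini-Hochberg over all tested genes. The fit had 2 residual degrees of freedom and a prior of 7.63. The script was tested on simulated data for poly IC plus ethanol against poly IC, with a common spread for all genes. That test did not cover the comparisons with the single naive array. The number of arrays limits the precision.

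The members, the lists and the tests were chosen with earlier results of these data known. Named were all called members, the 3 of each complex with the largest statistic in each comparison, a list of catalytic and tissue-specific subunits, and called genes of the pathway lists. Other names are said to be chosen after their values were seen. Alternatives were another scaling, offset, filter, variance prior, probe set summary, the pool number as a block, fewer arrays and subunits alone. Xist read 3907 to 8236 on the 5 arrays, and Eif2s3y, Kdm5d and Uty read 14.7 to 212. On the naive array Xist read 7699, and the other 3 genes lay below its brightest bacterial control of 225.5. In these genes the naive array thus read as the female pools did, although its label states no sex.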

Additional observations from a re-analysis of the deposited data

How the results depend on the processing

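No log2 difference of a named member changed sign while called, and 2 of 21 calls, Cycs and Cox17 in poly IC against naive, were kept under all alternatives run. Of 1628 values of named members under the alternatives, 39 changed sign while not called. For poly IC plus ethanol against poly IC (1 member called), the count was 0 with median-centred arrays, with no filter, with eBayes without trend, with the mean of all probe sets and with the 4 treated arrays alone. It was 2 with the filter at the 60th percentile, 2 with the replicate block, and 0 to 5 with 1 array left out. The median difference became 0.013 with median-centred arrays, and the non-overlapping members (38) became 23 with them and 45 to 60 with 1 array left out. For poly IC against naive (18 called), the count was 7 with median-centred arrays, 5 without trend and 4 to 26 with 1 array left out, and the median of -0.24 became -0.16 with median-centred arrays. For poly IC plus ethanol against naive (2 called), it was 1 with median-centred arrays, 4 with quantile normalization, 1 at an offset of 50, 0 with no filter, 4 with the filter at the 60th percentile, 1 without trend, 5 with the replicate block and 1 to 13 with 1 array left out.

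The calls in the pathway lists of the first comparison (5) became 2 with median-centred arrays, 2 with no filter, 1 without trend and 0 to 6 with 1 array left out. Those of poly IC against naive (12) ran from 9 to 21 with 1 array left out. Those of the third (8) became 3 with no filter, 5 with the filter at the 60th percentile, 4 without trend and 4 to 11 with 1 array left out. The causes of these changes were not tested.

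Pool numbers are shared between the treated groups, and the labels do not say that a number marks a shared batch or day. The differences of pool 1 from pool 2 correlated at 0.05 over 5581 genes and 0.31 over the 67 members, and 1 pair of differences does not settle whether pools of the same number are paired. With the replicate block 21 members were called in poly IC against naive. The limits are 1 naive array, pools in place of animals, and transcripts of other cell types that move with the groups.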
